A study of Mus musculus with 6 samples.

Results

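The 10 genes described here make, break down and sense prostaglandins: *Ptgs1*, *Ptgs2*, *Ptges*, *Ptges2*, *Ptges3*, *Ptgis*, *Ptger2*, *Ptger3*, *Ptger4* and *Hpgd*. They were chosen by name, as the rows with these symbols among the 20327 gene symbols counted in each library, and all 10 were found. Both groups came from C57BL/6 mice with the genotype Il11-Egfp, male and 9 to 15 weeks old, that drank 1.5% dextran sulfate sodium (DSS), which injures the colonic epithelium, for 5 days and then regular water. On day 7, colon cells without Ter119, CD45, CD31 and EpCAM, the surface markers of red cells, leukocytes, endothelium and epithelium, were sorted by EGFP. The EGFP-Positive libraries are called IL-11+ fibroblasts and the EGFP-Negative libraries IL-11- fibroblasts (n = 3 libraries per group from 3 mice), with values in the order of replicates 1, 2 and 3. EGFP is driven by *Il11* sequence on a bacterial artificial chromosome, so it reports that transgene and not the IL-11 protein. The gate removes cells by these 4 surface markers alone, and IL-11- libraries can hold any other stromal cell, such as smooth muscle cells, pericytes or glia.

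Prostaglandins are short-lived lipid signals made from arachidonic acid. Phospholipases release this fatty acid from membranes, the cyclooxygenases *Ptgs1* and *Ptgs2* turn it into a common precursor, and terminal synthases turn the precursor into prostaglandin E2 or other products such as prostacyclin. Prostaglandin E2 acts on G-protein-coupled receptors and is inactivated inside cells by the dehydrogenase *Hpgd*, and in the colon it is known as a stromal signal to the epithelium during repair.

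Expression was measured by 5′Tag-seq, which counts tags from the 5′ side of polyA RNA. Library totals were 1057170, 1078179 and 1169817 tags for IL-11- and 1046538, 1022851 and 1049048 tags for IL-11+ fibroblasts. Mitochondrial genes held 8.94, 9.45 and 7.31% of tags in IL-11- and 5.04, 4.67 and 4.43% in IL-11+ replicates, and 16028, 15845 and 15925 against 15196, 14993 and 15167 symbols had a tag. Ribosomal RNA (*Rn18s* and *Rn45s*) held 5.39, 5.51 and 6.24% against 6.83, 6.57 and 6.47% of tags. The groups did not overlap in any of these, and the part of this in the results below was not tested. The floor was set at 3 tags, which is 2.56 to 2.93 CPM (tags scaled to a common library size). Since PCR copies a molecule many times, this floor and any interval made from tag numbers take in counting error alone. Levels are given as normalized CPM, in which library sizes were scaled by edgeR's TMM method. Genes entered the test when 3 or more of the 6 libraries had 10 or more tags. A gene was called when its fold change was over 2 and its edgeR adjusted p, from the quasi-likelihood test after Benjamini-Hochberg adjustment, was under 0.05. All log2 fold changes are of IL-11+ over IL-11- libraries.

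*Il11* itself, the gene behind the reporter, stood at 26.7, 48.1 and 73.1 normalized CPM in IL-11- replicates 1, 2 and 3 and at 1438, 743 and 2535 in IL-11+ replicates 1, 2 and 3. Every IL-11+ library was far above every IL-11- library, as the sort would give (log2 fold change 4.98, SE 0.393, edgeR adjusted p = 1.01e-07). The labelled tissue was checked against marker lists. Fibroblast markers summed to 22120, 22110 and 24640 normalized CPM in IL-11- and to 42230, 33960 and 30310 in IL-11+ replicates, with *Dcn* the most abundant, and 2 of 9 (*Pdpn*, *Col3a1*) were called higher, near the threshold, with log2 fold changes of 1.06 and 1.04. Of all tested genes, 3.44% were called higher. With library size only neither of these 2 was called (0.97 and 0.955). Without IL-11- replicate 1 they were at 0.96 and 0.85, and without IL-11+ replicate 1 *Pdpn* was at 0.96. The number of fibroblast markers called higher was 3 without IL-11- replicate 3 and without IL-11+ replicate 2. *Lum* of this list was lower and not called (-0.635, edgeR adjusted p = 0.0378). Markers of smooth muscle and pericytes summed to 4348, 4535 and 5118 in IL-11- and to 427, 436 and 611 in IL-11+ replicates. Of these 10 genes, 9 were called lower, beside 6.37% of all tested genes, led in level by *Rgs5*, and *Pdgfrb* was not called. Of the glial and neuronal markers, *Ncam1*, the most abundant, was not called, and *Gfap* was called lower, with 22, 23 and 26 tags against 1, 0 and 1. *Gfap*, and *Cnn1* and *Notch3* of the smooth muscle and pericyte list, passed the filter through IL-11- libraries alone, and so had to differ to be tested.

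The 11 leukocyte genes summed to 22.9, 30.2 and 22.2 normalized CPM in IL-11- and to 45.6, 20.3 and 17.2 in IL-11+ replicates, with *Cd68* the most abundant. The 7 endothelial genes summed to 48.7, 34.9 and 46.8 against 18.0, 11.2 and 8.58, most of it *Tek*, which was called lower (log2 fold change -1.585, edgeR adjusted p = 0.0085) but not without IL-11+ replicate 2 (adjusted p = 0.0529), and *Pecam1* had 1 tag in all. Mesothelial genes, with *Wt1* the most abundant, summed to 15.3, 5.65 and 17.2 against 1.06, 0 and 1.91. None of them passed the filter. Without a filter *Wt1* and *Upk3b* were called lower, and with 10 tags in at least 1 library they were not (adjusted p = 0.057 and 0.117). The epithelial and tuft cell list summed to 93.6, 92.3 and 103.5 against 210.9, 282 and 227, almost all of it *Dclk1*, which was called higher (log2 fold change 1.43, edgeR adjusted p = 1.11e-05), while *Epcam* had 1 tag in each group. Of the mast cell list only *Kit* and *Hdc* were analysed here, and they summed to 60.2, 33.0 and 56.7 against 0, 0 and 7.63. Most of it was *Kit*, which also passed the filter through IL-11- libraries alone, while *Hdc* had 1 tag in each group. With *Kit* alone, this list cannot show whether mast cells were present. Erythroid genes, led by *Hbb-bs*, had 95, 0 and 371 tags among IL-11- and 18, 2 and 20 among IL-11+ libraries (90.7, 0 and 304.6 against 19.1, 2.03 and 19.1 normalized CPM), and so differed between libraries of a group. None passed the filter, and under both looser filters 4 of them (*Hbb-bs*, *Hbb-bt*, *Hba-a1*, *Hba-a2*) were called lower, with adjusted p from 0.00656 to 0.0252 when 10 tags in at least 1 library sufficed, which they reached through IL-11- libraries alone. Of these lists, *Cdh5*, *Adgre1*, *Cdh1*, *Pou2f3* and 6 mast cell genes were not analysed here, and no analysed gene was at 0 in all 6 libraries.

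Of the 10 prostaglandin genes, 8 passed the filter on low values and *Ptger2* and *Ptger3* did not. Called higher in IL-11+ fibroblasts were 2 of these 8, *Ptgs2* and *Ptges*, where 3.44% of all 9334 tested genes were called higher. Called lower was 1, *Hpgd*, where 6.37% of all tested genes were called lower. *Hpgd* passed the filter through its IL-11- libraries alone, and so had to differ to be tested. Of the 8 tested genes, 4 had their 3 IL-11+ libraries all on the same side of the IL-11- libraries (*Ptgs2*, *Ptges*, *Ptgis*, *Hpgd*), where 31.2% of all tested genes did, and so had *Ptger2*, which was not tested. In such bulk libraries, fewer cells of a type and less RNA per cell cannot be told apart.

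**Figure D1:**
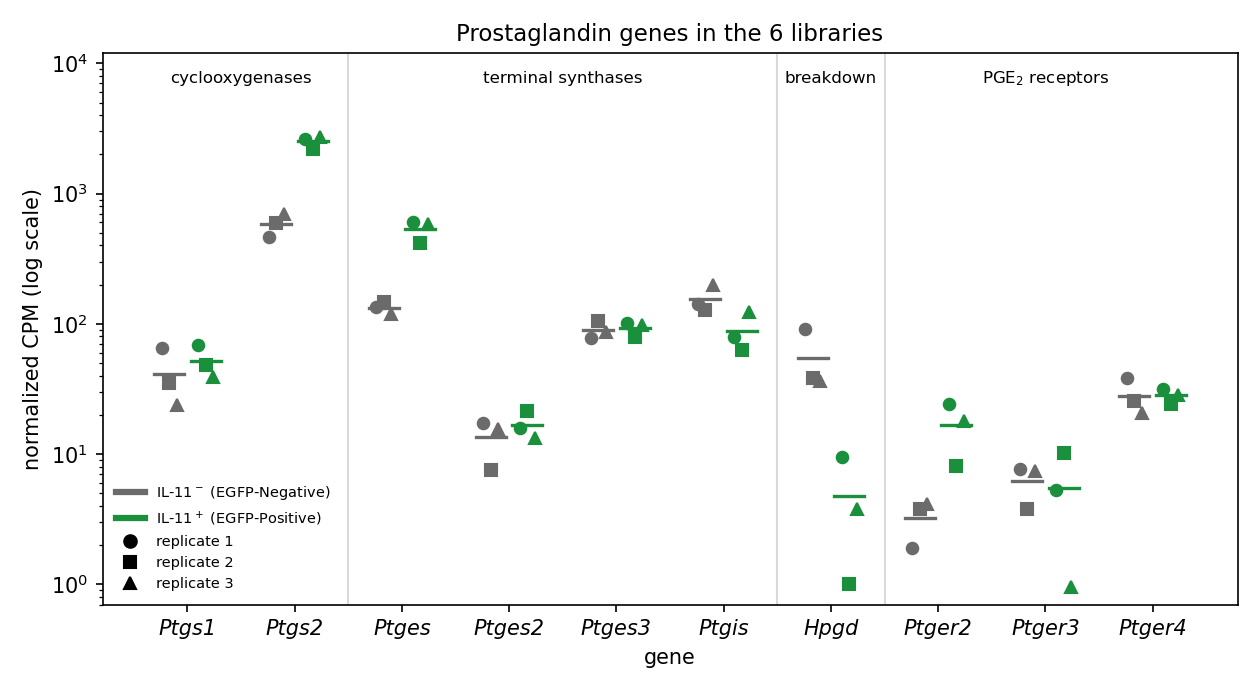
Normalized CPM on a log axis for the 10 prostaglandin genes in the 3 IL-11- libraries (gray) and the 3 IL-11+ libraries (green). Each symbol is a library, its shape gives the replicate number, and the short lines are group means. *Ptgs2* and *Ptges* stand higher and *Hpgd* lower in all 3 IL-11+ libraries.

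The cyclooxygenases differed in behavior. *Ptgs2*, the inducible cyclooxygenase (chromosome 1, 150100031 to 150108227 in GRCm38), stood at 465, 593 and 700.4 normalized CPM in IL-11- replicates 1, 2 and 3 and at 2641, 2187 and 2738 in IL-11+ replicates 1, 2 and 3. The 3 IL-11+ libraries lay close together and all far above the highest IL-11- library. The mean rose from 586 ± 118 to 2522 ± 294 (SD, n = 3), which is 4.3-fold. On the log2 scale the change was 2.11 (SE 0.191, 95% interval 1.70 to 2.51, edgeR adjusted p = 3.94e-07). Within same-numbered libraries, the log2 ratio was 2.51, 1.88 and 1.97. *Ptgs1*, the cyclooxygenase known for steady expression in many tissues (chromosome 2, 36230426 to 36252272), stood at 64.9, 34.9 and 23.8 normalized CPM in IL-11- and at 68.9, 48.7 and 39.1 in IL-11+ replicates 1, 2 and 3. The groups overlapped, and replicate 1 was the highest library of each. Within same-numbered libraries the log2 ratio was 0.09, 0.48 and 0.715. The log2 fold change of *Ptgs1* was 0.35 (SE 0.307, 95% interval -0.295 to 0.995, edgeR adjusted p = 0.518), which did not pass the test. It was 0.83 without IL-11- replicate 1 (adjusted p = 0.0839) and 0.06 without IL-11- replicate 3, and with the replicate block it was 0.39 (adjusted p = 0.253).

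Of the terminal synthases for prostaglandin E2, only *Ptges* passed the test, in these libraries and under this threshold. *Ptges*, the inducible microsomal synthase that is often expressed together with *Ptgs2* (chromosome 2, 30889471 to 30929863), stood at 135, 146 and 118 normalized CPM in IL-11- replicates 1, 2 and 3. In IL-11+ replicates it stood at 602, 415 and 583. Each IL-11+ library exceeded each IL-11- library, with IL-11+ replicate 2 the lowest of its group, as it also was for *Ptgs2*. The mean rose from 133 ± 14.0 to 533 ± 103 (SD, n = 3). On the log2 scale this was 2.00 (SE 0.186, 95% interval 1.61 to 2.40, edgeR adjusted p = 4.98e-07). *Ptges2*, a second synthase bound to membranes (chromosome 2, 32395896 to 32405772), had 18, 8 and 19 tags among IL-11- and 15, 21 and 14 among IL-11+ libraries. *Ptges3*, a cytosolic synthase better known as the Hsp90 co-chaperone p23 (chromosome 10, 128058954 to 128077272), had 81, 112 and 106 against 96, 78 and 103 tags. Both overlapped between groups. The log2 fold change of *Ptges2* was 0.32 (95% interval -0.47 to 1.10) and that of *Ptges3* was 0.05 (95% interval -0.34 to 0.44), with a sign that turned under scaling by library size. For *Ptges2* it was 0.05 without IL-11- replicate 2, 0.12 without IL-11+ replicate 2 and 0.51 without IL-11- replicate 1. Some tags of *Ptges3* can belong to its pseudogenes, since 27.5% of the 50-nt windows near its annotated 5′ ends also occur in *Gm11893* or *Ptges3-ps*.

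*Ptgis*, which makes prostacyclin from the same precursor (chromosome 2, 167191805 to 167240604), lay in the other direction. It stood at 141, 128 and 197 normalized CPM in IL-11- replicates 1, 2 and 3 and at 79.5, 62.95 and 124 in IL-11+ replicates. The groups did not overlap, but the highest IL-11+ library, replicate 3, was close to the lowest IL-11- library. The means were 155.5 ± 36.6 and 88.8 ± 31.6 (SD, n = 3), with a log2 fold change of -0.81 (SE 0.228, 95% interval -1.285 to -0.33, edgeR adjusted p = 0.0204). This is under the fold threshold, and *Ptgis* was not called. Without IL-11+ replicate 3 the log2 fold change was -1.13 and was called, while the adjusted p was 0.107 without IL-11- replicate 3, 0.0819 without IL-11+ replicate 1 and 0.133 without IL-11+ replicate 2. Markers of smooth muscle and pericytes were lower in the same IL-11+ libraries, and their part in this difference was not tested.

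*Hpgd*, the 15-hydroxyprostaglandin dehydrogenase that starts the breakdown of prostaglandin E2 (chromosome 8, 56294585 to 56321043), had 95, 41 and 44 tags among IL-11- libraries and 9, 1 and 4 tags among IL-11+ libraries. This corresponds to 90.7, 38.6 and 36.1 against 9.54, 1.015 and 3.815 normalized CPM. The groups did not overlap, IL-11+ replicate 2 lay below the floor, and replicate 1 was the highest of each group. The group mean was 55.15 ± 30.8 in IL-11- and 4.79 ± 4.345 normalized CPM in IL-11+ libraries (SD, n = 3). The log2 fold change was -3.51 (SE 0.495, 95% interval -4.55 to -2.47, edgeR adjusted p = 5.52e-05). Summed over libraries, 180 tags stood against 14, a rate 11.5 times higher in IL-11- fibroblasts (exact 95% interval 6.68 to 21.5, counting error only). Without IL-11+ replicate 1, which held most of the IL-11+ tags, the log2 fold change was -4.41, and without IL-11- replicate 1 it was -2.95. Markers of smooth muscle and pericytes, the endothelial and mesothelial lists, *Kit* and *Gfap* were also lower in IL-11+ libraries. *Kit* and *Gfap*, like *Hpgd*, could be tested only if lower. The order within groups was not shared by all. Replicate 1 of each group was highest for *Hpgd* and the endothelial sum, and lowest for the smooth muscle and pericyte sum. The part of such cells in the lower level of *Hpgd* was not tested.

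The ratio of *Ptgs2* to *Hpgd* tags within a library sets synthesis beside breakdown and does not depend on scaling between libraries. With 0.5 tags added to each, the log2 ratio was 2.35, 3.92 and 4.26 in IL-11- replicates 1, 2 and 3 and 8.04, 10.49 and 9.32 in IL-11+ replicates 1, 2 and 3. The groups were far apart, and the highest ratio belonged to the library with 1 *Hpgd* tag. The mean log2 ratio differed by 5.77 between groups, higher in 3 of 3 same-numbered comparisons (exact two-sided permutation p = 0.1, the smallest that 3 against 3 libraries can give). That test exchanges libraries freely. With exchange only within same-numbered libraries, a choice made after seeing the data, the exact p was 0.25, the smallest that 3 pairs can give. Both genes were chosen with earlier results known and were called in opposite directions, so the ratio restates those calls, and its p adds nothing to them. How many tags a gene yields differs between genes, so the change between groups can be read from this ratio and its absolute size cannot.

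The receptors for prostaglandin E2 gave few tags. *Ptger2*, which couples to Gs and raises cAMP (chromosome 14, 44988195 to 45003820), had 2, 4 and 5 tags among IL-11- libraries and 23, 8 and 19 tags among IL-11+ libraries. The groups did not overlap, though IL-11+ replicate 2 was near the IL-11- libraries. Too few libraries had 10 tags for the test. From the summed 11 and 50 tags, the rate was 5.08 times higher in IL-11+ fibroblasts (exact 95% interval 2.61 to 10.8, counting error only). When 10 tags in at least 1 library sufficed, which *Ptger2* reached through its IL-11+ libraries alone, its log2 fold change was 2.33 (SE 0.535, edgeR adjusted p = 0.00403) and it was called, as it was without a filter, at 2.35. *Ptger4*, the other Gs-coupled receptor (chromosome 15, 5206661 to 5244187), had 40, 27 and 25 tags against 30, 24 and 30. Its groups overlapped, with a log2 fold change of 0.02 (SE 0.286, 95% interval -0.58 to 0.62, edgeR adjusted p = 0.977) whose sign turned under scaling by library size. *Ptger3*, which couples mainly to Gi and lowers cAMP (chromosome 3, 157566892 to 157645888), had 8, 4 and 9 tags against 5, 10 and 1, and was not tested. Its groups overlapped, and the summed 21 and 16 tags give a ratio of 0.851 (exact 95% interval 0.415 to 1.71, counting error only). Even this interval, which leaves out the spread between libraries, is too wide to show a difference at this depth.

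Upstream of the cyclooxygenases, 19 genes of arachidonic acid release and handling were found and 11 tested, of which 3 were called higher and 1 lower, where 3.44% of all tested genes were called higher and 6.37% lower. The median log2 fold change was 0.27, against -0.01 over all tested genes. *Pla2g4a*, the cytosolic phospholipase A2 that frees arachidonic acid from membranes, had 60, 45 and 48 tags among IL-11- and 140, 159 and 166 among IL-11+ libraries. The groups were well apart, with a log2 fold change of 1.75 (SE 0.187, edgeR adjusted p = 2.5e-06). *Acsl4*, which couples arachidonic acid to coenzyme A, had 183, 176 and 208 tags against 1068, 701 and 632, a log2 fold change of 2.26 (SE 0.214, edgeR adjusted p = 6.23e-07). Every IL-11+ library exceeded every IL-11- library, IL-11+ replicate 1 most. *Mboat7*, which returns arachidonic acid to phosphatidylinositol, had a log2 fold change of 1.06 (edgeR adjusted p = 0.0229). That call was lost in 7 of 13 alternatives, among them DESeq2 (adjusted p = 0.0628) and the omission of any library but IL-11+ replicate 3 (adjusted p from 0.0512 to 0.0999). *Mgll*, the monoglyceride lipase that can also supply arachidonic acid, fell from 70, 83 and 91 tags to 37, 28 and 36, with a log2 fold change of -1.11 (edgeR adjusted p = 0.00108), and -0.99 without IL-11+ replicate 2, which is just under the threshold. Of the tested genes not called, *Pla2g16*, *Lpcat3* and *Pla2g12a* had the highest levels, with log2 fold changes of 0.27, 0.49 and 0.53.

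Synthases of the other prostanoids were sparse. Of 9, 4 were tested, 1 was called higher and 0 lower, beside 3.44% and 6.37% of all tested genes. The called gene was the aldo-keto reductase *Akr1b8*, which had 41, 47 and 63 tags among IL-11- and 153, 88 and 95 among IL-11+ libraries (log2 fold change 1.33, edgeR adjusted p = 0.00057). Without IL-11+ replicate 1, its highest library, the log2 fold change was 0.998, and this list had 0 calls. *Akr1b3*, *Cbr1* and *Fam213b* were not called, with log2 fold changes of 0.29, -0.58 and -0.47, and the list's median was -0.09. The synthases of prostaglandin D2, *Ptgds* and *Hpgds*, and of thromboxane, *Tbxas1*, had at most 6 tags in any library. For transport and the later steps of breakdown, 9 genes were found and 6 tested, and 0 were called by edgeR or DESeq2. By edgeR, 3.44% of all tested genes were called higher and 6.37% lower. At an unadjusted p under 0.05 the number was also 0, beside 12.2% of all tested genes higher and 14.5% lower. Among 6 genes, a count of 0 cannot be told from these shares. The median of the 6 genes was -0.23. *Zadh2*, *Slco3a1* and *Ptgr1*, the most abundant of them, had log2 fold changes of -0.18, -0.165 and 0.285. The uptake transporter *Slco2a1* had 5, 9 and 6 tags against 1, 3 and 5 and was not tested.

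Among 6 other prostanoid receptor genes, 3 were tested, with a median of -0.065. *Ptgir*, the prostacyclin receptor, had 38, 37 and 29 tags among IL-11- and 22, 15 and 37 among IL-11+ libraries, and the groups overlapped (log2 fold change -0.345, edgeR adjusted p = 0.528). *Ptger1*, the prostaglandin E2 receptor that raises calcium, had a log2 fold change of -0.065 (edgeR adjusted p = 0.946). *Ptgfrn*, a membrane protein named for its binding to the prostaglandin F receptor and not itself a receptor, was called higher, with 151, 151 and 158 tags against 271, 360 and 319 (log2 fold change 1.20, SE 0.167, edgeR adjusted p = 4.56e-05). The neighboring leukotriene and lipoxygenase pathway had 12 genes in the files and 3 tested, with a median of -0.16. The epoxide hydrolase *Ephx1*, of broad substrate range, fell (log2 fold change -1.77, edgeR adjusted p = 0.00281), and more so without IL-11+ replicate 3 (-2.63), which had 24 tags where the others of its group had 7 and 6. The leukotriene receptor *Cysltr1* had 3, 11 and 3 tags against 19, 10 and 13. Its groups overlapped, and its log2 fold change of 1.44 was not called (edgeR adjusted p = 0.0683) but was called with the replicate number as a block (adjusted p = 0.0343), without a filter (adjusted p = 0.0293) and without IL-11- replicate 2 (2.37, adjusted p = 0.015). *Lta4h* had a log2 fold change of -0.16.

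Genes of cAMP signaling form the route below *Ptger2* and *Ptger4*. Of 32 genes 25 were tested, 1 was called higher and 5 lower (6 with library size only, where *Pkig* was added at -1.02), beside 3.44% and 6.37% of all tested genes, and the median was -0.42. At an unadjusted p under 0.05 and with no fold threshold, 4 were higher and 9 lower, beside 12.2% and 14.5% of all tested genes. Lower were the scaffold *Akap12* (204, 235 and 294 tags against 59, 54 and 96, log2 fold change -1.65, edgeR adjusted p = 9.5e-06), the phosphodiesterase *Pde3a* (log2 fold change -1.502), the adenylyl cyclase *Adcy5* (-1.415), the protein kinase A inhibitor *Pkia* (-1.55) and the regulatory subunit *Prkar2b* (-1.47). *Pkia* and *Prkar2b* passed the filter through their IL-11- libraries alone, and so had to differ to be tested. The calls of *Pkia* and *Prkar2b* rested on few tags and were lost in 5 and 3 of 13 alternatives, DESeq2 included (adjusted p = 0.0752 and 0.0521). For *Pkia* the adjusted p was 0.0948 without IL-11- replicate 2, 0.0644 without IL-11- replicate 3, 0.0742 without IL-11+ replicate 1 and 0.0739 without IL-11+ replicate 3. For *Prkar2b* it was 0.103 without IL-11- replicate 1 and 0.0975 without IL-11+ replicate 3. Higher was the phosphodiesterase *Pde4d*, which degrades cAMP (55, 50 and 47 tags against 114, 86 and 97, log2 fold change 1.12, edgeR adjusted p = 0.000638, and 0.98 without IL-11+ replicate 1, under the threshold). The abundant *Prkar1a*, *Gnas* and *Pde4b* were not called, with log2 fold changes of 0.58, -0.10 and 0.43. Smooth muscle and pericyte markers were lower in the same libraries, and their part in the lower genes was not tested.

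All 20 genes of a list of transcripts known to respond to cAMP were tested, 5 were called higher and 0 lower by edgeR and by DESeq2, beside 3.44% and 6.37% of all tested genes, and the median was 0.33. The number called higher was 3 without IL-11+ replicate 1, 7 without IL-11- replicate 1, 8 with the adjusted p alone, and from 4 to 6 in the other alternatives. The number called lower was 2 with library size only, without IL-11- replicate 3 and without IL-11+ replicate 2, and 3 with the adjusted p alone. At an unadjusted p under 0.05 and with no fold threshold, 10 were higher and 5 lower, where 12.2% of all tested genes were higher and 14.5% lower by this rule. The list includes *Ptgs2* and *Pde4d*, already described. The epidermal growth factor family ligand *Ereg* had 1088, 1209 and 1348 tags among IL-11- and 5321, 4836 and 6492 among IL-11+ libraries (log2 fold change 2.35, edgeR adjusted p = 7.59e-08). *Areg*, of the same family, had 15, 37 and 32 against 63, 82 and 147 (log2 fold change 1.94, edgeR adjusted p = 0.000141). The G-protein regulator *Rgs2* had a log2 fold change of 1.025, close to the threshold and under it with library-size scaling (0.94) and without IL-11- replicate 3 (0.845), IL-11+ replicate 1 (0.93) or IL-11+ replicate 2 (0.88). The immediate early genes *Fos*, *Fosb* and *Nr4a1*, the most abundant that were not called, had log2 fold changes of -0.95, -0.97 and -0.59, with edgeR adjusted p of 0.000826, 0.00102 and 0.0318 and no overlap between groups. *Fos* and *Fosb* were called lower with library size only (-1.03 and -1.05), without IL-11- replicate 3 (-1.05 and -1.11) and without IL-11+ replicate 2 (-1.02 and -1.05). The share of mitochondrial tags, given above, was also lower in every IL-11+ library and that of ribosomal RNA higher, and their part in these values was not tested.

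Of 22 regulators of *Ptgs2* transcription or mRNA stability, all were tested, 1 was called higher and 1 lower, beside 3.44% and 6.37% of all tested genes, and the median was 0. At an unadjusted p under 0.05 and with no fold threshold, 2 were higher and 7 lower, beside 12.2% and 14.5% of all tested genes. With library size only, 4 were called lower, as *Fos*, *Cebpd* and *Myd88* moved from -0.95, -0.94 and -0.95 to -1.03, -1.01 and -1.03, and 2 were called lower without IL-11+ replicate 3 (*Cebpd* at -1.11) and without IL-11- replicate 3 or IL-11+ replicate 2 (*Fos*, as above), and 5 with the adjusted p alone. *Il1r1*, the receptor for interleukin-1, a known inducer of *Ptgs2*, had 249, 246 and 273 tags among IL-11- and 515, 502 and 513 among IL-11+ libraries. The libraries of each group lay close together and the groups apart (log2 fold change 1.155, SE 0.158, edgeR adjusted p = 3.95e-05). *Zfp36*, which binds AU-rich elements and promotes decay of such mRNAs, *Ptgs2* among them, had 4014, 3847 and 4543 against 1287, 1815 and 1868 tags (log2 fold change -1.165, SE 0.177, edgeR adjusted p = 0.000119). Of its 50-nt windows near annotated 5′ ends, 12.2% also occur in other transcripts. *Jun* and *Zfp36l1* were not called, with log2 fold changes of -0.225 and 0.575.

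The 5 genes whose profile over the 6 libraries was closest to that of *Ptgs2* were *Timp1*, *Fgf7*, *Ereg*, *Serinc5* and *Sod3*, among 1684 genes that averaged 100 tags or more. Likeness was the root mean square distance between log2 normalized CPM profiles, each centered on its own mean, and came to 0.10, 0.11, 0.185, 0.19 and 0.21. *Fgf7*, a growth factor for epithelium, stood at 103, 121.5 and 133 normalized CPM in IL-11- and at 490.7, 391.9 and 495.9 in IL-11+ replicates 1, 2 and 3. Like *Ptgs2*, it was lowest in replicate 1 among IL-11- libraries and in replicate 2 among IL-11+ libraries. It was picked for a close profile over these same libraries, so this likeness is not a separate result.

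Because *Ptgs2* and *Ptges* rose together while *Hpgd* fell, their promoters are shown, from RefSeq (GRCm38.p6), where 9 of the 10 genes were matched by symbol, all but *Ptgis*. Windows of 300 bases, 250 before and 50 from the RefSeq start, were searched on both strands for 7 motifs. They were the CRE core (TGACGT, in 7.51% of all 32851 windows), AP-1 (TGANTCA, 7.81%), C/EBP (TTNNGCAA, 10.8%), E-box (CACGTG, 7.15%), SP1 (GGGCGG, 35.7%), TATA box (TATAAA, 13.6%) and an NF-kB motif (8.46%). Among the 9 genes the CRE core occurred in *Ptgs2* alone, the C/EBP motif in *Ptgs2* and *Ptger2*, the E-box in *Ptgs2* and *Ptges2*, the TATA box in *Hpgd*, the NF-kB motif in *Ptges3*, SP1 in 6 genes and AP-1 in 0. In *Ptgs2* the C/EBP match TTGCGCAA lies at -69 to -62 and the CRE core at 13 to 18, counted from the RefSeq start as base 1, and the CRE core overlaps the E-box at 17 to 22. *Ptges* holds SP1 matches at -53 to -48 and -42 to -37, and *Hpgd* holds an SP1 match at -50 to -45 and a TATA box at 5 to 10. The lines give 170 bases before and 30 from the start, 5′ to 3′ along the gene, with matches in capitals. They lie at chr1:150099861-150100060 (plus strand), chr2:30903268-30903467 (minus strand) and chr8:56294382-56294581 (plus strand). The RefSeq start of *Ptgs2* is also that of the gene span given above, which is from GENCODE. For the other 2 genes they differ. The *Ptges* stretch lies inside its gene span, which starts at 30929863 on the minus strand. The *Hpgd* span starts at 56294585, after the RefSeq start of 56294552 and after the TATA box match. A match of letters is a description and not a bound site, and the tag counts do not say where transcription started.
Ptgs2: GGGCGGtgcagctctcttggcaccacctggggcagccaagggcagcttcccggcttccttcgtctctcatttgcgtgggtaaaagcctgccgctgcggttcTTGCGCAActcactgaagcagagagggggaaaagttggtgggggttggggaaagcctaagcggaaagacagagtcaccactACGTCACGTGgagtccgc
Ptges: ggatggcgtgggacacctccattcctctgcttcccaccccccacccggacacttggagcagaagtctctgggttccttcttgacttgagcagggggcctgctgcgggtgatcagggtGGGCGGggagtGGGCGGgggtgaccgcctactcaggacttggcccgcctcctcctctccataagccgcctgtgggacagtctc
Hpgd: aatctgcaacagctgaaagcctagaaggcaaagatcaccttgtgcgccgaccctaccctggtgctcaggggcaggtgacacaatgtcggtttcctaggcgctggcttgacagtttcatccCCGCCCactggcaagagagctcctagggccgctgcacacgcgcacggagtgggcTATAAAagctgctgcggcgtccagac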

How the data were processed

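Tags were counted by the authors, who trimmed the reads with Cutadapt 1.18 and used Bowtie2 2.2.5 to map them, in a fixed orientation, to mm10 transcripts of RefSeq. They deposited these counts for 20327 gene symbols in each of 6 libraries, without normalization. How multi-mapping tags were treated, and whether molecular identifiers were used, is not given in the sources used here. Counts were analyzed in R 4.3.3 with edgeR 4.0.16 (TMM, glmQLFit and glmQLFTest, Benjamini-Hochberg adjustment over all 9334 tested genes). Standard errors are the log2 fold change divided by the root of F. 95% intervals use the t distribution with the fit's degrees of freedom.

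The prostaglandin genes and all lists were chosen with earlier results of these data known, so lists are described by counts and medians and were not tested. Named are all 10 prostaglandin genes. Of each pathway list, they are the called genes and the 3 most abundant tested genes not called. Of each marker list, it is the most abundant gene. Other genes were named after their values were seen, and some genes are not reported here.

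The methods name 3 mice, and the labels number the libraries of each group 1 to 3. Over the 5063 genes averaging 30 tags or more, libraries of the same number deviated together from their group means (r of 0.23, 0.185 and 0.261, across genes, which are not independent). The numbers were therefore taken to pair libraries. The labels do not say whether such libraries share a mouse or a batch, and this was not tested. The main fit leaves the pairing out, and the replicate block is one of the alternatives.

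Alternatives were RLE, library size only, iterative TMM as in the TCC package, DESeq2 1.42.0, looser filters, the adjusted p alone, the replicate block, and each library left out. Positions and 50-nt windows of the first 300 nt of transcripts came from GENCODE mouse release 21 (GRCm38).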

Additional observations from a re-analysis of the deposited data

How the results depend on the processing

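*Ptgs2*, *Ptges* and *Hpgd* were called in the same direction under every alternative run. With the adjusted p alone, 638 genes were called higher in place of 321, and 2 of the prostaglandin genes were called lower, *Ptgis* beside *Hpgd*, by construction of the rule. This number ranged from 1 to 2 when a library was left out, and was 2 without IL-11+ replicate 3. *Ptger2* was added to the genes called higher under both looser filters. Adding the replicate block gave 337 genes called higher and 648 lower. The block changed no call of a prostaglandin gene and, among the other genes named, that of *Cysltr1*. The log2 fold changes of *Ptges3* and *Ptger4*, near 0 and not called, were -0.033 and -0.061 under scaling by library size, which lowers the median of all tested genes to -0.095. They ranged from -0.046 to 0.185 for *Ptges3* and from -0.17 to 0.30 for *Ptger4* when a library was left out, and the cause was not tested. The difference in the log2 ratio of *Ptgs2* to *Hpgd* ranged from 5.16 to 6.39 when a library was left out. Depth limits *Ptger2*, *Ptger3* and the IL-11+ level of *Hpgd*.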

Other observations

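A pair of ratios chosen after their values were seen, and not tested, compares genes within a library. The log2 ratio of *Ptges* to *Ptgis* tags was -0.07, 0.19 and -0.735 in IL-11- replicates 1, 2 and 3 and 2.91, 2.71 and 2.23 in IL-11+ replicates 1, 2 and 3, a difference of means of 2.82. The ratios of each group lay close together and did not overlap. The log2 ratio of *Ptgs2* to *Ptgs1* tags was 2.83, 4.07 and 4.855 against 5.25, 5.47 and 6.11, a difference of 1.69, and IL-11- replicate 3 came near the IL-11+ libraries.

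In each group, the library with the most *Il11* also had the most *Ptgs2*, and the library with the least *Il11* had the least *Ptgs2*. *Il11* stood at 26.7, 48.1 and 73.1 normalized CPM in IL-11- replicates 1, 2 and 3, where *Ptgs2* stood at 465, 593 and 700.4. In IL-11+ replicates 1, 2 and 3 *Il11* stood at 1438, 743 and 2535, and *Ptgs2* at 2641, 2187 and 2738. The order is not particular to *Ptgs2*. *Il6* and *Nr4a3*, with log2 fold changes of 0.725 and -0.601 and neither called, had it too. How many of all tested genes share it was not counted. This order was noticed in the data, and 3 libraries per group are too few to test it.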
